A study of Mus musculus with 12 samples.

Results

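Genomic imprinting silences a gene on the chromosome copy that came from either the mother or the father. At most imprinted domains a control region carries DNA methylation from either the egg or the sperm. The methylated copy is bound by the zinc-finger protein ZFP57, which recruits TRIM28 and the H3K9 methyltransferase SETDB1 and so places H3K9me3, a mark of silent chromatin. The unmethylated copy is free to carry H3K4me3, the mark of active promoters, and H3K27ac, the mark of active promoters and enhancers. In a cell population, peaks of H3K4me3 and H3K9me3 at the same control region are the usual picture of such a split between the parental copies.

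The 10 mouse loci examined here were Peg10, Peg3, Snrpn, H19, Kcnq1ot1, Plagl1, Grb10, Meg3, Airn and Gnas. They are represented by the peaks that overlap 1 given window per locus, 40 to 110 kb long on GRCm39 and 670 kb in all. Peaks of the same mark that overlapped between libraries were merged into regions. The windows held 56 of the 135768 merged regions of the series, 17 of H3K4me3, 27 of H3K27ac and 12 of H3K9me3. The windows were taken as given. With no gene annotation of GRCm39 used here, no peak was assigned to a start site, exon, intron or control region of these genes.

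The cells were mouse embryonic stem cells of the line E14TG2a, grown with serum, LIF and the inhibitors PD0325901 and CHIR99021. The first genotype was WT. The second, labelled Alkbh5 del-cIDR, lacks the C-terminal intrinsically disordered region of the RNA demethylase ALKBH5, whose substrate is N6-methyladenosine. CUT&Tag, which tags chromatin where an antibody sits, served for H3K4me3 and H3K27ac. CUT&RUN, which cuts it there instead, served for H3K9me3. Each mark had 2 libraries per genotype, making 12. Whether replicates were separate cultures, and whether the mutant is a single clone, is not in the labels, so the tests measure only the spread between these libraries. Lists held 19033 to 19881 peaks for H3K4me3, 23407 to 33460 for H3K27ac and 21705 to 43785 for H3K9me3, the shortest being WT replicate 1. They carry no read counts, so depth is unknown, and they do not separate the parental copies.

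ZFP57 recognises the methylated letters TGCCGC. The RefSeq promoter table, built on GRCm38.p6, gives the 250 bases before and 50 after each listed start. It holds 16 starts of 8 of the loci and none for Peg10 or H19. TGCCGC, or GCGGCA for the opposite strand, was found in 4 of the 16, 1 each at Plagl1, Meg3, Snrpn and Grb10, beside 11.6% of all 32851 promoters of that length. No other motif was searched. These 4 are shown because they hold the letters, in capitals, of the factor linked to H3K9me3 at imprinted loci. For Plagl1 and Meg3, both on the plus strand, the 250 bases before the start are printed. For Snrpn and Grb10, both on the minus strand, 30 bases around the match are printed, because the match begins 2 bases before the start and at base 25 after it. All read 5′ to 3′ along the gene.
Plagl1: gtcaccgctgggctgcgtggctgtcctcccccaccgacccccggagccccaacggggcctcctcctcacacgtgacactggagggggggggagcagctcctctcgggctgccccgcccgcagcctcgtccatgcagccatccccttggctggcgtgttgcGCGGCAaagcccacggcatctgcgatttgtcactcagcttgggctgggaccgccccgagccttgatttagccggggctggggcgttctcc
Meg3: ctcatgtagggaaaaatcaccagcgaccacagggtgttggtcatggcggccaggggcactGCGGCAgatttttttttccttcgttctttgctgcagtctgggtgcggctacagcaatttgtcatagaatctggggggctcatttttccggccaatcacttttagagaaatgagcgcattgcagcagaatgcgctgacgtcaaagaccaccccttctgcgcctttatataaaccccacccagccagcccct
Snrpn: gacccctgcattGCGGCAaaaatgtgcgca
Grb10: gggtgcggggagGCGGCAggaagggaaggg
CpG content differed widely among the loci. The Grb10 promoter shown held 45 CpGs in 300 bases, Plagl1 26, Meg3 13 and the Snrpn start shown 7. Of the promoters without the letters, the Gnas starts held 27, 16, 28 and 40, Peg3 13, Kcnq1ot1 9 and Airn 3. The other listed starts held 9 at Grb10, 1 at Meg3 and 2, 3 and 4 at Snrpn. The median over all promoters was 7. The table's build differs from that of the peaks, so whether a peak covers these letters was not determined.

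No site in the 10 windows carried both H3K4me3 and H3K9me3. Of the 15 H3K4me3 regions with a peak in at least 2 libraries, 0 overlapped an H3K9me3 region of at least 2 libraries. Over all 19990 such H3K4me3 regions 339 did, a share of 1.7%. With a share that low, a count of 0 among 15 is no result about imprinted loci. Counting a peak in any single library of each mark gave 0 of 17, beside 3.05% of all 23623 regions. No H3K27ac region of the windows overlapped H3K9me3 either, 0 of 16 with 2 libraries needed, beside 2.64% of all.

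H3K9me3 was sparse in the windows. The del-cIDR libraries had 3 peaks each, WT replicate 1 had 2 and WT replicate 2 had 8. Of the 12 H3K9me3 regions 9 came from a single library, 7 of them from WT replicate 2, which also had the longest list. Only 2 of the 12 (16.7%) were in all 4 libraries, beside 23.4% of all. The 1 at Snrpn crosses the window's edge, and in 3 of the 4 libraries its peak lies outside. Airn, Peg3 and H19 had no H3K9me3 region. The highest −log10 q of these 12 regions was 2.52, from a WT replicate 2 peak of that Snrpn region outside the window. Among peaks overlapping a window the highest was 2.02. Lists of H3K9me3 take peaks down to a q-value of 0.1. Enrichment under that limit is not in the lists, so a window without a peak is not shown to lack the mark.

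The nearest approaches of H3K9me3 to H3K4me3 were at Meg3 and Snrpn. At Meg3, H3K9me3 of WT replicate 2 at chr12:109504886-109505026 ended 1585 bp before an H3K4me3 region. A separate H3K9me3 peak of del-cIDR replicate 1, chr12:109503981-109504687, lay 198 bp further out. At Snrpn, H3K9me3 of WT replicate 2 at chr7:59658477-59659076 lay 3590 bp from H3K4me3. Each of these 3 rests on 1 library. For the 15 H3K4me3 regions the median distance to H3K9me3 of at least 2 libraries was 42.4 kb, beside 55.2 kb over all H3K4me3 regions. Distances ran from 13.0 kb at Gnas to 309.8 kb at Kcnq1ot1. The H3K9me3 region at Gnas had weak peaks in both del-cIDR libraries, with −log10 q of 1.68 and 1.59, and no WT peak.

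**Figure D1:**
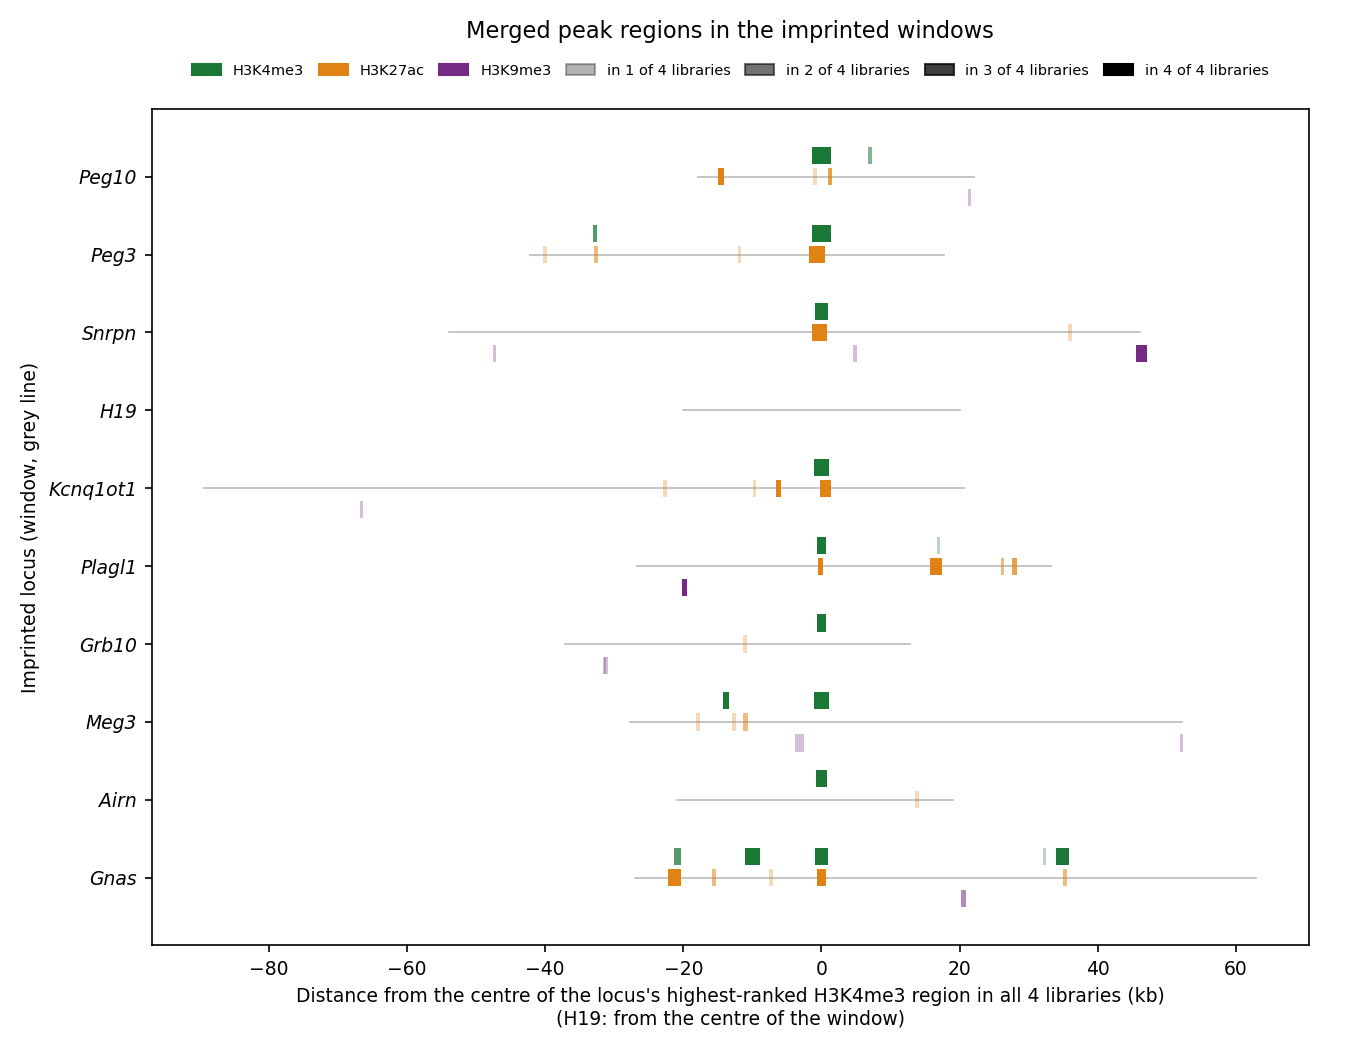
Merged peak regions in the 10 windows, as distance in kb from the centre of 1 H3K4me3 region per locus (for H19, from the window centre). That region has the highest mean fold percentile among those of the locus found in all 4 libraries. Green, orange and purple bars are H3K4me3, H3K27ac and H3K9me3, paler where fewer of the 4 libraries had a peak, and bars under 0.5 kb are drawn at 0.5 kb; in no window does a purple bar lie under a green one, and H19 is empty.

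H3K4me3 and H3K27ac each had a region in 9 of the windows. H3K4me3 was in all 4 libraries in 9 of the windows, at 12 regions, and H3K27ac in 6, at 9 regions. In all, 12 of 17 H3K4me3 regions (70.6%) were in all 4 libraries, near the 68.1% of all H3K4me3 regions. The median of the other 5 was 417 bp wide. The 12 were wide for their mark, with a median of 1939 bp beside 1220 bp over all 16093 regions found in all 4 libraries, and 11 of the 12 were wider than that. Most were not tall by fold. The fold, the authors' enrichment of a peak over its own library's background, was ranked among those 16093 regions, and 10 of the 12 lay under the 50th percentile in every library, as 40.0% of all regions did. Only Plagl1 and Snrpn lay over it in all 4. By −log10 q 6 of the 12 lay under the 50th percentile in every library and 5 over it. The shares of all regions over the 50th percentile by fold, and on either side by −log10 q, were not computed. Those counts are therefore no result about imprinted loci.

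**Figure D2:**
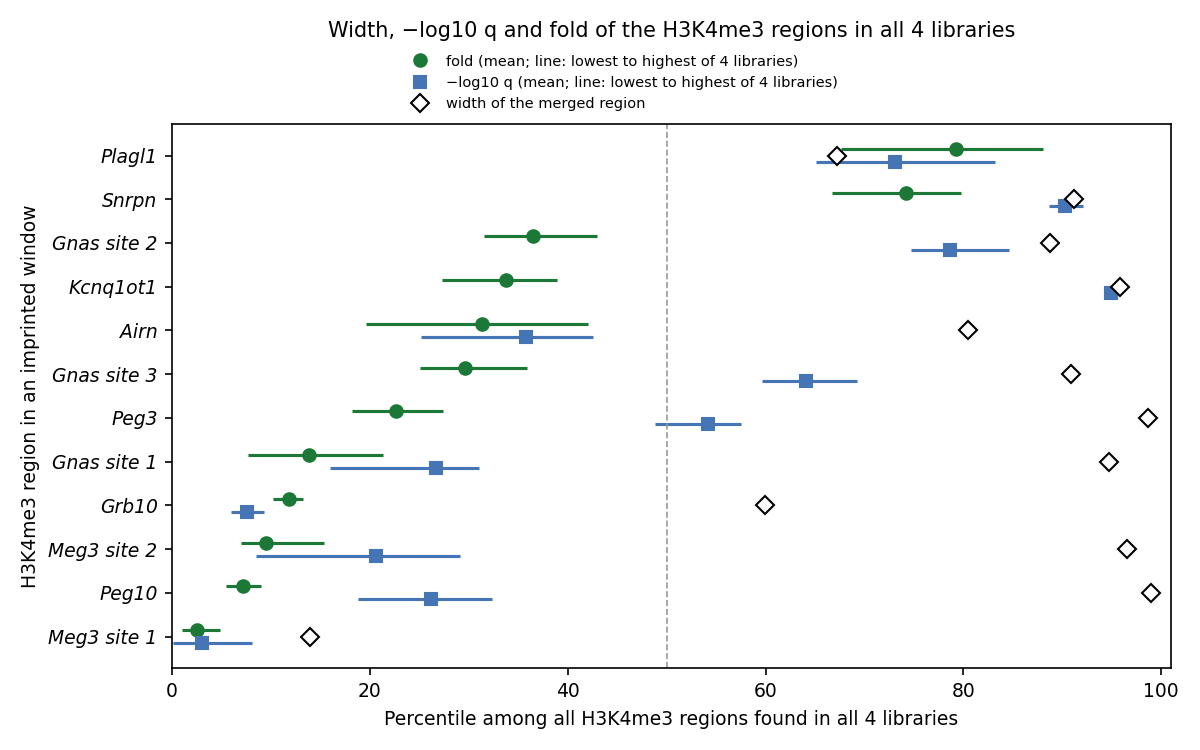
Percentile of width (diamonds), of −log10 q (squares) and of fold (circles) for the 12 H3K4me3 regions found in all 4 libraries, among all 16093 such regions. Circles and squares are means and lines run from the lowest to the highest of the 4 libraries; 10 circles lie left of the 50th percentile while 11 diamonds lie right of it, and the squares lie on both sides.

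Peg10, Peg3, Snrpn and Plagl1 are expressed from the paternal copy, and their control regions are methylated in the egg. Snrpn encodes a spliceosome protein of the Prader-Willi domain. Its H3K4me3 at chr7:59652942-59654886 had folds of 11.3 and 12.4 in del-cIDR and 12.6 and 11.8 in WT, with 1913 to 1944 bp under peaks. The genotypes overlapped in both measures, and the 4 summits lay within 127 bp. H3K27ac covered 87.5% of the region, with folds of 6.84 and 6.68 in del-cIDR and 6.42 and 5.91 in WT.

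Plagl1, also called Zac1, encodes a zinc-finger transcription factor that restrains the cell cycle. H3K4me3 at chr10:12966046-12967463 had folds of 11.4 and 13.7 in del-cIDR and 12.5 and 12.9 in WT. Its 4 summits lay within 34 bp, and the genotypes overlapped. H3K27ac there, chr10:12966261-12966936, had folds of 4.81 and 5.47 in del-cIDR and 4.70 and 4.23 in WT. Higher-fold H3K27ac stood 15.5 kb beyond that H3K27ac region, at chr10:12982428-12984215, with folds of 7.28, 6.51, 6.39 and 6.76 in the order del-cIDR 1, del-cIDR 2, WT 1, WT 2. H3K4me3 was there in WT replicate 1 only. This window also held an H3K9me3 region inside its edges with a peak in all 4 libraries, chr10:12946501-12947265, with folds of 3.60, 3.47, 3.98 and 3.82 in the same order. It lay 18780 bp from the H3K4me3 region.

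Peg3 encodes a large zinc-finger protein. H3K4me3 at chr7:6730875-6733534 was wider than 98.7% of regions but had folds of only 6.71 and 7.24 in del-cIDR and 7.52 and 6.55 in WT. H3K27ac overlapped 67.4% of it. H3K4me3 ran over 2079 and 2162 bp for del-cIDR against 2597 and 2449 bp for WT, without overlap between the genotypes, and both WT peaks began at a lower coordinate than the del-cIDR peaks. A small second site, chr7:6699180-6699573, had H3K4me3 in 3 libraries, with folds of 5.81 and 7.05 in del-cIDR and 10.8 in WT replicate 2.

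Peg10, a gene of retrotransposon origin needed for the placenta, had the widest H3K4me3 region of the windows, chr6:4746543-4749319. Its fold was low, 5.12 and 5.09 in del-cIDR and 5.41 and 4.80 in WT. Each del-cIDR library had a single peak there, of 2694 and 2730 bp, and each WT library had 2 peaks with a gap between them, 2183 and 2155 bp in sum. Chromosome 6 held 5.04% and 5.12% of the H3K4me3 peaks of the del-cIDR lists and 5.34% and 5.45% of the WT lists, and the part of that in the Peg10 value was not tested. H3K27ac lay at the edges of this region, at chr6:4749007-4749377 in 3 libraries and at chr6:4746775-4747222 in del-cIDR replicate 2. A separate H3K27ac region without H3K4me3, chr6:4732947-4733780, was in all 4 libraries with folds of 6.28 and 6.27 in del-cIDR and 5.71 and 8.96 in WT.

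Kcnq1ot1 and Airn are long noncoding RNAs made from the paternal copy that silence neighbouring genes, Cdkn1c among those of Kcnq1ot1 and Igf2r for Airn. H3K4me3 at Kcnq1ot1, chr7:142848249-142850484, had a fold below the middle of its mark and one of its highest −log10 q values. Its folds were 7.91 and 7.46 in del-cIDR and 8.60 and 8.44 in WT, percentiles 27.3 to 38.9 of the regions found in all 4 libraries. Its −log10 q was 219.9 and 254.7 in del-cIDR and 213.7 and 228.9 in WT, percentiles 94.7 to 95.3. H3K27ac overlapped 57.6% of it, at folds of 7.36 and 8.25 in del-cIDR and 6.65 and 7.34 in WT, and a further H3K27ac region without H3K4me3 lay at chr7:142842811-142843527.

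Airn H3K4me3, chr17:12960149-12961789, had folds of 6.68 and 7.59 in del-cIDR and 8.87 and 8.21 in WT, both WT values being the higher. Bases under peaks overlapped between genotypes, at 1554 and 1582 bp and at 1538 and 1641 bp. No H3K27ac lay on this site in any library, and the only H3K27ac of the window was 1 weak peak of WT replicate 1. Another H3K4me3 region of all 4 libraries stood just outside this window, 7.71 kb past its edge, with folds of 10.5 and 13.8 in del-cIDR and 13.0 and 11.6 in WT. At the other window edges the nearest H3K4me3 regions of all 4 libraries left out were 2.63 kb from the Plagl1 window and 4.93 kb from the Gnas window. Of the H3K4me3 regions of all 4 libraries inside the windows, the nearest to an edge were those of Grb10, at 12166 bp, and the first of Meg3, at 13457 bp.

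Grb10 encodes an adaptor protein that restrains growth signalling through insulin-family receptors. Its H3K4me3, chr11:11986507-11987834, was among the weaker of the set, with folds of 5.91 and 5.88 in del-cIDR and 5.60 and 5.65 in WT, and −log10 q of 6.90 and 8.26 against 6.41 and 7.51. No H3K27ac overlapped it, and the window's single H3K27ac peak came from del-cIDR replicate 2. H3K9me3 had a peak in WT replicate 1, chr11:11955880-11956105, and in WT replicate 2, chr11:11955631-11955798, and none in del-cIDR. These peaks lay 81 bp apart and were weak, with −log10 q of 1.03 and 1.74.

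Gnas encodes the stimulatory G protein alpha subunit, and its locus makes overlapping transcripts that are maternal, paternal or from both copies. It had the most H3K4me3 of any window, 3 regions in all 4 libraries, 1 in 3 libraries and 1 in WT replicate 1 alone. The first in all 4, chr2:174125981-174128134, had folds of 6.06 and 5.78 in del-cIDR and 5.22 and 6.90 in WT, and no H3K27ac. The next, chr2:174136113-174137960, lay 7.98 kb on and had folds of 8.45 and 8.89 in del-cIDR and 7.92 and 8.16 in WT, with summits within 15 bp. The last, chr2:174171012-174172943, had folds of 8.37 and 7.28 in del-cIDR and 7.25 and 7.90 in WT. At chr2:174114766-174116696 H3K27ac, with 1727 to 1931 bp under peaks, covered an H3K4me3 region that was missing from del-cIDR replicate 1. That H3K27ac had fold percentiles of only 33.2 to 45.2 among regions found in all 4 libraries, and −log10 q percentiles of 84.7 to 90.5.

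H19 and Meg3 are long noncoding RNAs made from the maternal copy, and the control regions of their domains are methylated in the sperm. The H19 window was empty in all 12 lists. The nearest H3K4me3 region, in all 4 libraries, was 22.3 kb below its edge, and on the other side 371.4 kb away. The nearest H3K9me3 region of all 4 libraries was 73.0 kb above it. Peaks under the lists' limits would not be seen, so no level can be given for H19.

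Meg3 belongs to the domain of Dlk1, with its control region upstream of the gene. The window held H3K4me3 at 2 sites of all 4 libraries, 12.3 kb apart. The first, chr12:109493457-109494303, was the weakest of the 12, with folds of 3.44 and 4.26 in del-cIDR and 3.55 and 4.68 in WT. The second, chr12:109506612-109508908, had folds of 5.14 and 6.14 in del-cIDR and 5.11 and 5.35 in WT. Neither overlapped H3K27ac, and none of the window's 3 H3K27ac regions was in more than 2 libraries.

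**Figure D3:**
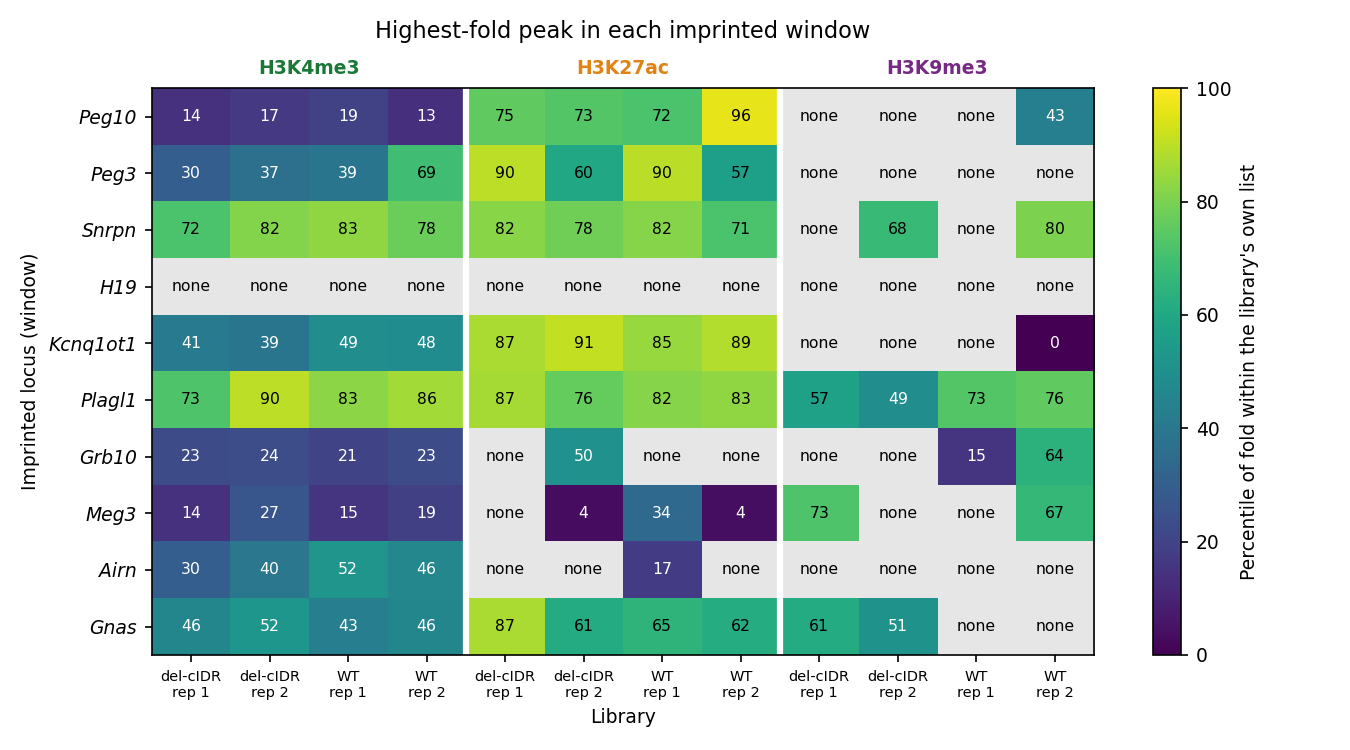
Percentile of fold, within its own library's list, of the highest-fold peak overlapping each window, by locus (rows) and library (columns), for the 3 marks. Grey cells are libraries with no peak in the window; all 12 are grey at H19, and most H3K9me3 cells are grey.

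H3K27ac overlapped part of the H3K4me3 regions. Of the 15 H3K4me3 regions of at least 2 libraries 9 (60.0%) overlapped H3K27ac, beside 59.7% of all. The 9 were at Peg10, Snrpn, Kcnq1ot1 and Plagl1, at both sites of Peg3 and at 3 of Gnas. The 6 without were those of Grb10, Airn and Meg3, the weak second site of Peg10 and the first Gnas site of all 4 libraries. With all 4 libraries of each mark required, the count was 5 of 12 (41.7%), beside 41.7% of all. With a peak in any library enough, it was 10 of 17 (58.8%), beside 69.3% of all. Of the 27 H3K27ac regions 9 (33.3%) were in all 4 libraries, beside 26.7% of all, and 11 came from a single library, 5 of them from del-cIDR replicate 2, the longest list.

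The genotypes were then compared over these windows, to ask whether the shortened ALKBH5 goes with other marks at imprinted loci. The number of H3K4me3 peaks was 14 in each del-cIDR library and 16 in each WT library (exact permutation p = 0.333, two-sided, the smallest that 2 libraries against 2 can give), a ratio of 0.875 beside 0.974 for whole lists. Part of that gap came from the Peg10 region, which held 1 peak in each del-cIDR library and 2 shorter ones in each WT library. H3K4me3 covered length was 19989 ± 1287 bp for del-cIDR against 22075 ± 659 bp for WT (exact permutation p = 0.333, mean ± SD of 2 libraries here and below), a ratio of 0.906 beside 0.986. Within that length the second Meg3 site held 1116 and 1322 bp for del-cIDR and 2253 and 2297 bp for WT. H3K27ac had 17 ± 4.24 and 14.5 ± 0.707 peaks (exact permutation p = 1), a ratio of 1.17 beside 1.27 for whole lists. Without del-cIDR replicate 2 that difference turned, to a log2 ratio of -0.05. It covered 14909 ± 2335 bp and 12813.5 ± 558 bp (exact permutation p = 0.333), a ratio of 1.16 beside 1.32 for whole lists. H3K9me3 had 3 peaks in each del-cIDR library and 5 ± 4.24 in WT (exact permutation p = 1), a ratio of 0.60 beside 1.18 for whole lists. Its covered length was 1681.5 ± 456 bp and 1367.5 ± 1372 bp (exact permutation p = 1), a ratio of 1.23 beside 1.51. The H3K9me3 direction turned with a library, to log2 ratios of 0.58 in number without WT replicate 2 and -0.48 in length without WT replicate 1.

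Only 2 of the 56 regions were called in a single genotype, both in del-cIDR and both at Gnas. H3K27ac at chr2:174172106-174172536, on the last Gnas H3K4me3 site, had folds of 4.04 and 4.77 in del-cIDR and no WT peak. It is 1 of 27 H3K27ac regions, beside 6.42% of all, and it was lost with lists of equal length. Its −log10 q was 2.56 and 4.33, so it was also lost at a minimum of 5, where the Gnas H3K27ac region at chr2:174136408-174137656 was instead the 1 called in del-cIDR alone. H3K9me3 at chr2:174157226-174158021 had folds of 3.65 and 3.49 in del-cIDR and no WT peak. It is 1 of 12, beside 4.51% of all, and was also lost with lists of equal length. A minimum −log10 q of 5 removed every H3K9me3 region of the windows, so that setting says nothing about this region. For H3K4me3 neither genotype had such a region, 0 and 0 of 17 for del-cIDR and WT, beside 2.08% and 2.84% of all, and for WT-only H3K27ac and H3K9me3 they were 0 beside 1.83% and 0.955%. None of these counts stands apart from the background.

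Ranks of fold among regions found in all 4 libraries gave the same picture. Of the 12 H3K4me3 regions 2 ranked higher in both del-cIDR libraries than in both WT libraries and 2 ranked lower, beside 19.4% of all regions in each direction. Higher was the second Gnas site of all 4 libraries (percentiles 36.9 and 43.0 against 31.5 and 34.6) and Grb10 (13.3 and 12.9 against 10.2 and 11.0). Lower were Kcnq1ot1 (31.3 and 27.3 against 38.9 and 37.6) and Airn (19.6 and 28.5 against 42.1 and 35.2). The median difference over the 12 regions was -0.64 percentile points, and 0.03 over all regions. The median rank of the set was 22.5 ± 4.05 for del-cIDR against 26.4 ± 0.312 for WT (exact permutation p = 0.333), and without del-cIDR replicate 1 the difference turned from -3.89 to 2.26 points.

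**Figure D4:**
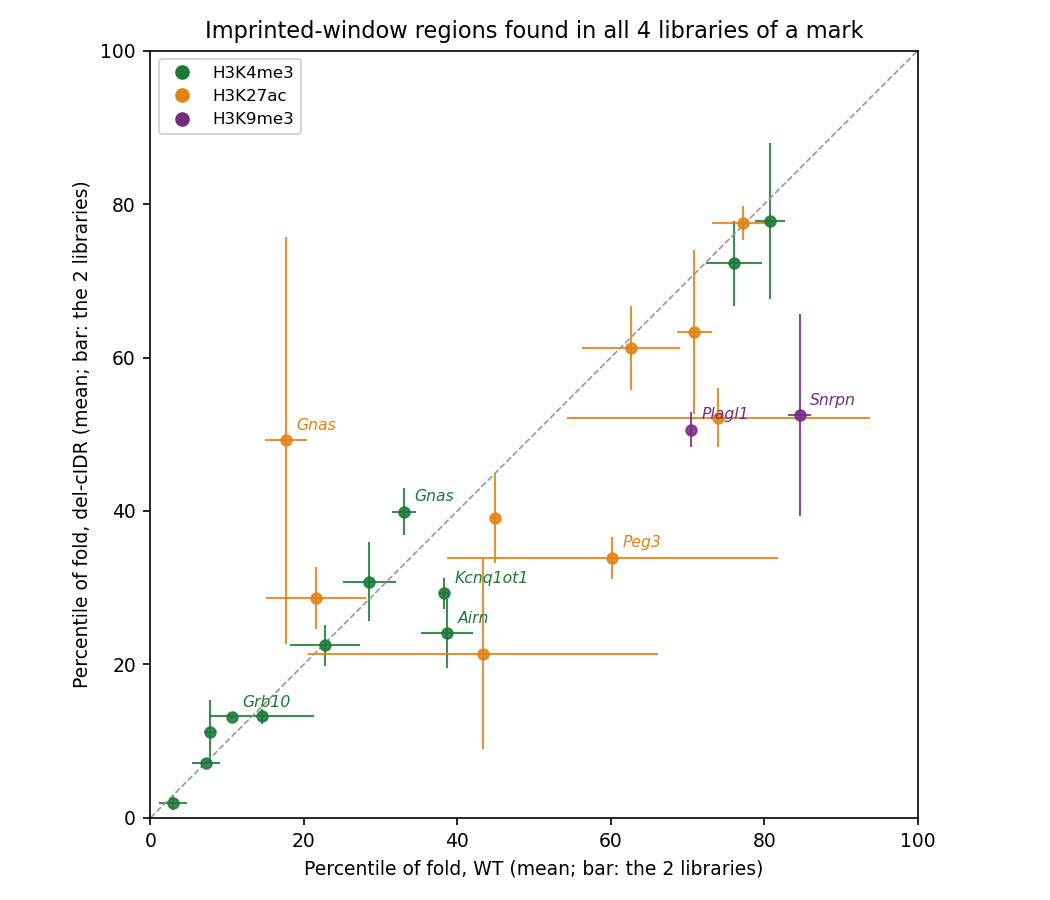
Percentile of fold in WT (x axis) and del-cIDR (y axis) for the window regions present in each of a mark's 4 libraries, ranked among all such regions. Points are means and bars join the 2 libraries of a genotype. Named points are those whose genotypes do not overlap, 4 of 12 for H3K4me3, 2 of 9 for H3K27ac and 2 of 2 for H3K9me3. Over all regions of a mark, 19.4% ranked higher and 19.4% lower in del-cIDR for H3K4me3. The shares were 19.8% and 20.5% for H3K27ac, and 17.9% and 18.4% for H3K9me3.

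Of the 9 shared H3K27ac regions 1 ranked higher in del-cIDR, at Gnas, beside 19.8% of all, and 1 ranked lower, at Peg3, beside 20.5%. The percentiles were 75.8 and 22.6 against 14.9 and 20.3 at Gnas and 36.7 and 31.1 against 81.7 and 38.6 at Peg3. The median rank of the 9 was 44.9 ± 15.7 for del-cIDR against 55.3 ± 1.45 for WT (exact permutation p = 0.667). That difference of -10.4 points turned to 1.04 without del-cIDR replicate 2 and to 3.48 with ranks of −log10 q. Both shared H3K9me3 regions ranked lower in del-cIDR, beside 18.4% of all, and 0 ranked higher, beside 17.9%. At Plagl1 the percentiles were 52.9 and 48.3 against 70.3 and 70.7, and at Snrpn 39.3 and 65.7 against 83.1 and 86.2. The median of these 2 regions was 51.6 ± 7.73 for del-cIDR against 77.6 ± 1.21 for WT (exact permutation p = 0.333). The Snrpn region, chr7:59699398-59701103, crosses the window's edge, and in 3 of the 4 libraries its peak lies wholly outside.

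The length under peaks set apart 2 sites, which were picked out after their values had been seen. H3K4me3 at the second Meg3 site ran over 1116 and 1322 bp for del-cIDR against 2253 and 2297 bp for WT, a ratio of 0.536. Both WT peaks ended at 109508908 and both del-cIDR peaks at 109507983. The starts were 109506868 and 109506662 in del-cIDR and 109506656 and 109506612 in WT. With any 1 library left out the ratio was 0.491 to 0.581. As the genotypes did not overlap in length here, leaving out 1 library could not turn it, so that range is no support. Only 75 of the 16093 regions found in all 4 libraries had a ratio of 0.536 or lower, but the site was picked for its lengths. The −log10 q there was 7.30 and 12.7 in del-cIDR and 18.9 and 21.3 in WT, while the folds overlapped. Chromosome 12 as a whole held a smaller share of the del-cIDR lists, 3.59% and 3.60% of H3K4me3 peaks against 3.85% and 3.78% in WT. The part of that in the Meg3 value was not tested.

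At the second Gnas site of all 4 libraries H3K27ac, chr2:174136408-174137656, ran over 1058 and 1249 bp for del-cIDR against 465 and 495 bp for WT, a ratio of 2.40, above 98.8% of the 13460 regions found in all 4 libraries. With any 1 library left out the ratio was 2.20 to 2.60, a range that again could not turn because the lengths did not overlap. The folds of this H3K27ac region were 7.38 and 4.93 in del-cIDR and 4.11 and 4.47 in WT. Their percentiles were 75.8 and 22.6 against 14.9 and 20.3, so del-cIDR replicate 2 stood close to WT. Of all H3K27ac regions 19.8% ranked higher in both del-cIDR libraries. H3K4me3 on the same site overlapped in length, at 1711 and 1745 bp against 1848 and 1697 bp. Shares of chromosome 2 differed little, 7.70% and 7.53% of H3K27ac peaks in del-cIDR against 7.33% and 7.43% in WT. H3K27ac lengths as a whole were greater in del-cIDR, with a median ratio of 1.11 over those 13460 regions.

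Counted over all sites, length did not separate the genotypes beyond the background. Of the 12 H3K4me3 regions 3 were shorter in both del-cIDR libraries than in both WT libraries, at Meg3, Peg3 and the last Gnas site, beside 21.7% of all. The Peg10 region alone was longer, beside 18.1% of all. For H3K27ac 3 of 9 were longer, at Gnas, Peg3 and Kcnq1ot1, beside 35.1% of all, and 0 were shorter, beside 9.42%. Neither H3K9me3 region differed without overlap, beside 32.3% longer and 3.42% shorter of all.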

How the data were processed

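Per the submitters' processing notes reads went through fastp, BWA, SAMtools, Picard, featureCounts and MACS2, in an order not stated, on GRCm39. Versions, settings and any control library: not given in the sources used here. The authors deposited 1 peak list per library, narrow for H3K4me3 and H3K27ac and broad for H3K9me3. Each gives a fold enrichment, a ratio to the background of that library, and the −log10 of p and of q as deposited. The lowest −log10 q of a list was 1.30 to 1.33 for the narrow and 1.00 to 1.01 for the broad lists. List length may follow depth, which is unknown.

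Peaks on chromosomes 1 to 19, X and Y were used, and others (49 to 891 a list) were left out. Peaks of a mark's 4 libraries overlapping by at least 1 bp were merged. A region was called in a single genotype when both of its libraries and neither other had a peak. A mark counted as present with peaks in 2 of 4 libraries. Folds were ranked within a library, and across libraries only among regions found in all 4. Tests were exact permutation tests, two-sided (Python 3.11.15, numpy 2.4.6, scipy 1.17.1), and the code was tested on simulated peak lists. Overlaps with the background share carry no test. Coordinates count from 1.

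Windows, members and lists were chosen with earlier results of these data known. All 10 loci are described. The plan was to name regions with H3K4me3 and H3K9me3, the strongest region of each mark in a window and those of a single genotype. Not every strongest region is named above, such as Peg3 H3K27ac at chr7:6699274-6699827, found in 2 libraries. Others were chosen after their values were seen. The planned lookups of other imprinted genes, imprint-maintenance factors and cell type markers needed a GRCm39 annotation and were not made.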

Additional observations from a re-analysis of the deposited data

How the results depend on the processing

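The count of sites with H3K4me3 and H3K9me3 was also 0 with any library of each mark, with merging within 1000 bp and with widened windows. The stricter settings could give only 0, so they say nothing about stability. H3K4me3 sites with H3K27ac went from 9 to 5 with all 4 libraries of each mark required. Of the differences between genotypes, as log2 ratios or percentile points, these turned: the H3K27ac rank with −log10 q (3.48), and, with 1 library left out, the H3K4me3 rank (range -9.60 to 2.26), the H3K27ac rank (-20.6 to 1.04), H3K27ac peaks (-0.051 to 0.46), H3K9me3 peaks (-1.42 to 0.58) and H3K9me3 length (-0.48 to 2.08, with -0.0090 without del-cIDR replicate 2 and 2.08 without WT replicate 2). Regions of a single genotype changed in number: with equal lists H3K27ac in del-cIDR to 0, H3K9me3 in del-cIDR to 0 and H3K9me3 in WT to 1. At a −log10 q of at least 5 H3K9me3 in del-cIDR was 0, and no H3K9me3 peak was left for number or length. Merging within 1000 bp gave 1 for H3K9me3 in WT, at Grb10, and windows widened by 10 kb gave 1 for H3K4me3 in WT. With 1 library left out the counts were 0 to 1 (del-cIDR) and 0 to 2 (WT) for H3K4me3, 2 to 6 and 0 to 3 for H3K27ac, and 1 to 2 and 0 to 7 for H3K9me3, the 7 without WT replicate 1. The cause of these changes was not tested. Sizes moved also where the direction held: from 0.30 to 0.013 for H3K9me3 length by peak centre, from 0.23 to 0.051 (equal lists) and 0.55 (−log10 q of at least 5) for H3K27ac peaks, and from -26.0 to -40.6 for the H3K9me3 rank with −log10 q. Deviations of libraries with the same replicate number were hardly correlated between genotypes (-0.0033, 0.0060 and 0.0267). That cannot show whether such libraries were prepared together. With the number as a replicate block each value was unchanged (log2 ratio of H3K4me3 peaks -0.19), and the smallest exact permutation p was 0.5. No depth is known, so a weak peak missing from a list cannot be told from an absent one. The comparison of H3K27ac with H3K4me3 and the ratios of length at 2 sites were added after seeing the data.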
